A study of Mus musculus with 6 samples.

Results

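Cells tune protein synthesis through eIF2, the factor that brings the initiator tRNA to the ribosome. Kinases that phosphorylate its alpha subunit block the recycling of eIF2 by eIF2B, so that general translation slows while a few mRNAs such as that of ATF4 are translated better, and a phosphatase with an exchangeable regulatory subunit removes the mark. PKR, one of these kinases, is activated by double-stranded (ds)RNA, the substrate of ADAR1, and its gene is a known interferon-stimulated gene (ISG). The genes described here are the 7 of this core: the kinases *Eif2ak1* (HRI, sensitive to heme and mitochondrial stress), *Eif2ak2* (PKR), *Eif2ak3* (PERK, of the endoplasmic reticulum) and *Eif2ak4* (GCN2, sensitive to uncharged tRNA), the substrate *Eif2s1* (eIF2α), and the phosphatase subunits *Ppp1r15a* (GADD34, inducible) and *Ppp1r15b* (CReP, constitutive). They were picked by gene symbol, and each matched 1 of the 59485 genes in the deposited table.

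The RNA came from sciatic nerves of mice at postnatal day 4 (P4), with 3 control and 3 mutant animals and 1 library from each. The mutants are *Ht-PA-Cre; Adar1*fl/fl*;R26R*, in which Cre, expressed from a human tissue plasminogen promoter, deletes floxed *Adar1* in neural crest (NC) cells, and R26R is a YFP tracer. The controls are labelled wild-type, a name that the study's methods give to littermates without Cre that carry 1 or 2 floxed *Adar1* alleles and R26R. A nerve also holds cells that are not of the NC, so a value adds up all of them, and fewer cells of a type cannot be told apart from less RNA per cell.

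The libraries held between 50938349 and 78250094 reads on genes. The targeted gene *Adar* did not follow the labels: its normalised read counts (reads on a gene divided by a size factor of the library) were 1602, 2066 and 1133 in the control libraries, in replicate order, and 11768, 9311 and 9773 in those of the mutants. The table gives 1 value per gene, so the deleted segment cannot be seen apart, and the groups are called control-labelled and mutant-labelled, with every direction drawn from the labels. None of the marker genes of the nerve was at 0 in all libraries. The summed counts of endothelial, pericyte, adipocyte and neutrophil markers overlapped between the groups, and those of the other lists did not. The summed count of 6 Schwann cell (SC) markers was 1123150 to 1487770 in control-labelled libraries and 44928 to 198931 in mutant-labelled ones, and 4 of the 6 were lower past the threshold given below (10.4% of all genes). The 5 erythroid markers summed to 44144 to 62503 and to 4108 to 12706, and the 5 skeletal muscle markers to 5187 to 28318.5 and to 34500.1 to 267697. The 4 fibroblast markers summed to 1211080 to 1381380 and to 478182 to 748607. *Col1a1* held most of that sum and was lower (log2 fold change -1.10), while *Pdgfra*, *Dcn* and *Lum* overlapped between the groups. The perineurial markers summed to 16416 to 19729.5 and to 13569 to 15560.1 but went both ways. *Itgb4* (-1.62) and *Slc2a1* (-0.27) were lower, *Cldn1* was higher (0.54) and *Krt19* overlapped. The neuron markers summed to 1537 to 1750.1 and to 2648 to 2903. The 5 macrophage markers summed to 6567 to 8315 and to 4299 to 5432.1, but went both ways, with *Csf1r* lower (-1.25) and *Ptprc* higher (1.33) past the threshold. The 5 T cell markers summed to 82.4 to 175 and to 251 to 339.7. The part of these shifts in the values below was not tested.

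The start regions of the genes show which of them carry letters that interferon-activated factors or ATF4 are known to bind. RefSeq promoters (GRCm38.p6, 250 bases before and 50 after the start) were matched for 6 of the 7 genes, not for *Ppp1r15b*, and searched on both strands. The letters GAAANNGAAA, a core of the interferon-stimulated response element (ISRE), were present in 3 of the 6, and in 3.44% of all 32851 promoters. These matches are shown with that of *Oas3*, an ISG that senses dsRNA, with the match in capitals.
Eif2ak2: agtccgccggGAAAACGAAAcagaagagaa
Ppp1r15a: aaaataaaagGAAAGGGAAAtggcacggta
Eif2s1: cctggagcaaGAAACAGAAActtacctctc
Oas3: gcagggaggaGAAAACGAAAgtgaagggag

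The windows are written 5′ to 3′ on the strand of their gene. That of *Eif2ak2* lies at chr17:78882535-78882564 on the minus strand, with the match at positions 18 to 27 past the annotated start, inside the transcribed part. Those of *Ppp1r15a* (chr7:45526469-45526498, minus strand) and *Eif2s1* (chr12:78861850-78861879, plus strand) lie upstream, with matches at positions -220 to -211 and -212 to -203 counted from the first transcribed base as 0. The 10 matched letters of *Eif2ak2* are the same as those of *Oas3* (chr5:120777715-120777744, minus strand). Of the letters TTCNNNGAA, the core of a gamma-activated sequence, a match was present in *Eif2ak2* and *Eif2ak3* and in 8.30% of all promoters.

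The letters TGATGNAA, a core of the composite element of ATF4 with its C/EBP partners, were found in none of the 6 genes, in 9 of 18 promoters of the ATF4 and CHOP axis described below and in 3.97% of all promoters. A pair of these is shown for contrast.
Trib3: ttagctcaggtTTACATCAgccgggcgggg
Chac1: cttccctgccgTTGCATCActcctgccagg

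These windows lie at chr2:152344028-152344057 (minus strand) and chr2:119351038-119351067 (plus strand), and both matches are on the strand opposite to the gene. A match is a description of letters in a window of 300 bases, and the lack of one says nothing about sites elsewhere.

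The study was designed to show how nerves change when *Adar1* is deleted in NC cells, and mutant-labelled and control-labelled libraries were compared with limma on log2(value + 1). The threshold was a change of 2-fold or more with an unadjusted p of 0.05 or less, and adjusted p-values cover all 25802 genes tested. *Eif2ak2* and *Eif2s1* passed it, both higher, and none of the 7 passed it as lower. Of all tested genes, 24.2% passed, 13.9% as higher and 10.4% as lower. An adjusted p at or under 0.05 without a limit on size was reached by 5 of the 7, against 35.0% of all genes, with 3 higher and 2 lower (19.0% and 16.0% of all genes). The values of the groups did not overlap in those 5, with 3 higher and 2 lower, against 49.2% of all genes (25.9% and 23.3%). The median log2 fold change was 0.12 over the 7 genes and 0.03 over all genes tested.

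**Figure D1:**
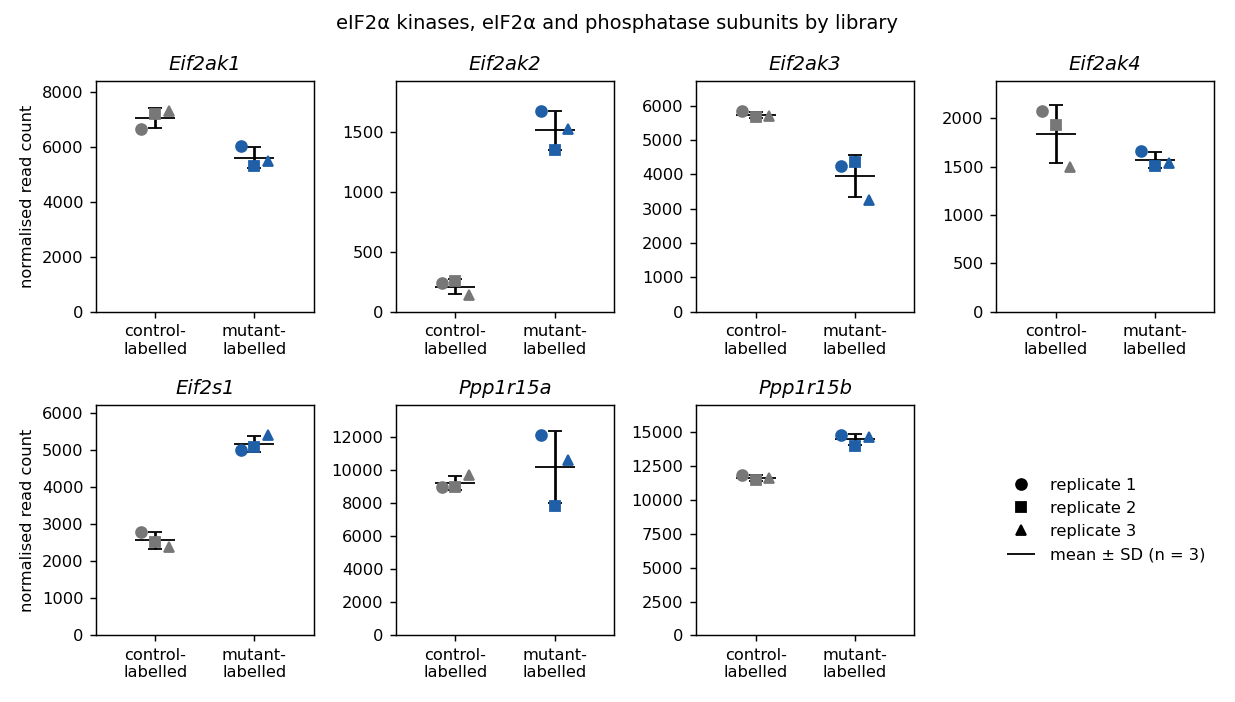
Normalised read count (y axis, from 0) of each of the 7 genes in the 3 control-labelled (grey) and 3 mutant-labelled (blue) libraries, with symbols for replicates 1 to 3 and bars for the mean ± SD. The groups are apart for *Eif2ak1*, *Eif2ak2*, *Eif2ak3*, *Eif2s1* and *Ppp1r15b* and overlap for *Eif2ak4* and *Ppp1r15a*.

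Among the kinases, PKR alone passed the threshold. *Eif2ak2* (GSMG0017872, mm10, chromosome 17, 78852550 to 78882572) had normalised read counts of 238, 253 and 138 in control-labelled libraries (replicates 1 to 3, the order used throughout) and 1674, 1349 and 1523 in mutant-labelled ones. Every mutant-labelled library was more than 5 times the highest control. The gene rose from 209.7 ± 62.4 to 1515.5 ± 163 (SD, n = 3), a ratio of means of 7.23. Its log2 fold change was 2.89 (95% interval 2.34 to 3.44, adjusted p = 6.53e-05), higher than that of 94.4% of all genes tested. The controls were themselves uneven, and without control replicate 3, the lowest, the log2 fold change was 2.62.

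The other kinases did not share this rise. *Eif2ak3* (GSMG0032040, chromosome 6, 70844515 to 70905241) had counts of 5846, 5675 and 5699.9 in control-labelled libraries and 4239, 4362 and 3242 in mutant-labelled ones. The controls lay within a narrow range and all mutant-labelled libraries below it, replicate 3 most. The log2 fold change was -0.55 (95% interval -0.84 to -0.27, adjusted p = 0.00943), larger than the spread between replicates but under 2-fold, and it was -0.42 without mutant replicate 3. The adjusted p was 0.0569 with eBayes without trend and under 0.05 in the other fits.

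*Eif2ak1* (GSMG0030026, chromosome 5, 143871862 to 143904251) had counts of 6650.4, 7195 and 7300.4 in control-labelled libraries and 6029, 5289 and 5495 in mutant-labelled ones. The groups did not overlap, and the log2 fold change was -0.33 (95% interval -0.54 to -0.12, adjusted p = 0.0230). The adjusted p was above 0.05 in 8 of 17 other fits, at 0.0877 without control replicate 2, 0.0824 without control replicate 3, 0.0592 without mutant replicate 2, 0.0595 without mutant replicate 3, 0.105 with eBayes without trend, 0.0854 with edgeR and 0.163 with libraries scaled to a common total. The log2 fold change was -0.29 to -0.39 with a library left out and -0.17 with the common total. HRI is abundant in erythroid cells, and 4 of the 5 erythroid markers passed the threshold as lower in the same libraries (10.4% of all genes), with *Hba-a1* at 20735 to 27466 in control-labelled libraries and 1867 to 5835 in mutant-labelled ones and a median log2 fold change of -3.02 over the 5. Their part in the difference of *Eif2ak1* was not tested.

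*Eif2ak4* (GSMG0021602, chromosome 2, 118388617 to 118475234) had counts of 2075, 1932 and 1499 in control-labelled libraries and 1659, 1508 and 1534 in mutant-labelled ones. The groups overlapped, since control replicate 3 was the lowest of all 6. The log2 fold change was -0.22, with an interval from -0.54 to 0.11 that holds 0 and leaves out any change of 2-fold (adjusted p = 0.268). It was -0.35 without control replicate 3, -0.12 without control replicate 1 and -0.052 with a common total.

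**Figure D2:**
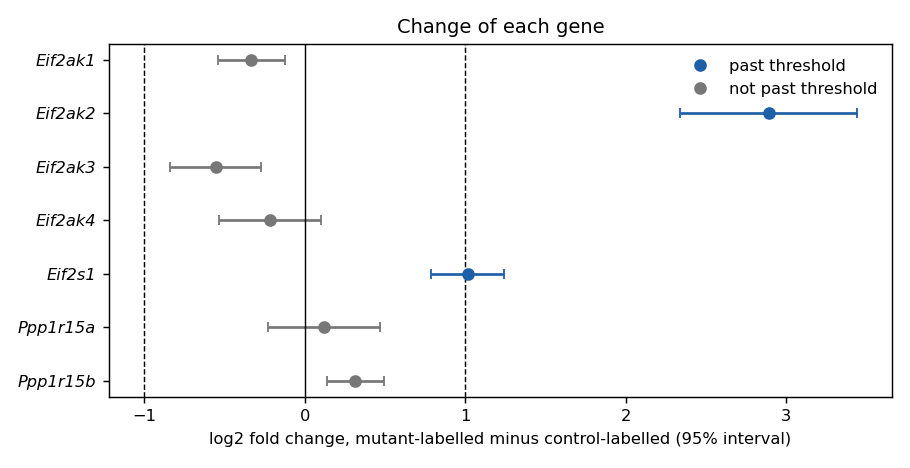
Log2 fold change (x axis, mutant-labelled minus control-labelled) of the 7 genes with its 95% interval from limma, where dashed lines mark a 2-fold change and blue points are past the threshold. *Eif2ak2* stands apart at 2.89, *Eif2s1* lies on the line at 1.02, and the intervals of the other genes stay within a 2-fold change.

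The substrate rose with the kinase, to a smaller extent. *Eif2s1* (GSMG0008243, chromosome 12, 78862068 to 78887010) had counts of 2802, 2509.7 and 2375 in control-labelled libraries and 5012, 5089.6 and 5412 in mutant-labelled libraries. Replicates differed little within a group and the groups were far apart. The mean went up from 2562 ± 218 to 5171 ± 212 (SD, n = 3), and the log2 fold change was 1.02 (95% interval 0.79 to 1.24, adjusted p = 0.000143). The interval includes changes under 2-fold, and the call was lost without control replicate 3 (0.96), without mutant replicate 3 (0.98) and with a common 75th percentile of the libraries (0.90), while the adjusted p stayed at or under 0.00583 in every fit.

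The beta subunit of eIF2 rose as well, and the difference of its rise from that of the alpha subunit was not tested. *Eif2s2* had counts of 4657, 4335 and 4843 in control-labelled libraries and 11867, 11056 and 15426 in mutant-labelled ones, with mutant replicate 3 the highest. It rose by 1.46 ± 0.13 (SE) on the log2 scale, with an adjusted p of 9.57e-05, and was the 1 gene of the 8 other subunits of eIF2 and eIF2B to pass the threshold (24.2% of all genes). The gamma subunit is encoded by an X-linked and a Y-linked copy, *Eif2s3x* and *Eif2s3y*, which are close paralogs and were singled out after their values were seen. *Eif2s3y* was listed at 0 in control replicates 1 and 3 and in mutant replicate 2, the libraries in which the X-linked *Xist* had counts of 6503 to 9325, and at 3782 to 4425 in the others, where *Xist* was at 0. *Eif2s3x* ran the other way, from 7397 to 7712 in the libraries with *Eif2s3y* and from 10553 to 11943.5 in those without it. The sum of both was 11456 ± 479 in control-labelled libraries and 11466.5 ± 798 in mutant-labelled libraries. The groups overlapped in this sum, and the means differed by less than either SD.

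eIF2B recharges eIF2 with GTP and is the complex that phosphorylated eIF2α holds back. *Eif2b3* (eIF2Bγ) had counts of 1521 to 1730.1 in control-labelled libraries and 2563 to 3004 in mutant-labelled ones, which gave a log2 fold change of 0.75 (adjusted p = 0.00114) that is under 2-fold. The log2 fold changes of *Eif2b2* and *Eif2b1* were 0.32 (adjusted p = 0.0471) and 0.28 (adjusted p = 0.0632), and those of *Eif2b4* and *Eif2b5*, named after their values were seen, were 0.11 and 0.12.

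The phosphatase subunits moved little. *Ppp1r15a* (GSMG0035912, chromosome 7, 45522920 to 45526268) had counts of 8979, 8975 and 9704 in control-labelled libraries and 12125, 7818 and 10598 in mutant-labelled ones. The mutant-labelled values lay on both sides of the controls, with replicate 2 below and replicates 1 and 3 above. The log2 fold change was 0.12 (95% interval -0.23 to 0.47, adjusted p = 0.574), which leaves out a change of 2-fold, and its sign turned without mutant replicate 1 (-0.017).

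*Ppp1r15b* (GSMG0000778, chromosome 1, 133131166 to 133139800) had counts of 11847, 11453 and 11624 in control-labelled libraries and 14827, 14022 and 14630.4 in mutant-labelled libraries. All mutant-labelled libraries lay above all controls, by a log2 fold change of 0.32 (95% interval 0.14 to 0.49, adjusted p = 0.0137). This difference was larger than the spread between replicates and under 2-fold, and its adjusted p was above 0.05 in 5 of 17 other fits, at 0.0632 without control replicate 2 and 0.0997 with a common 75th percentile.

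Both subunits act by binding the catalytic subunit of protein phosphatase 1, and 0 of 5 listed partners passed the threshold with limma, with edgeR or with DESeq2 (24.2% of all genes passed with limma). An unadjusted p at or under 0.05 with limma was found in 3 of the 5, against 45.0% of all genes. *Ppp1ca* had counts of 21098 to 24130.2 in control-labelled libraries and 14814 to 18554 in mutant-labelled ones, which gave a log2 fold change of -0.49 (adjusted p = 0.00877). *Ppp1cc* was at -0.29 (adjusted p = 0.102), and *Nck1*, an adaptor reported in complexes with eIF2 and the phosphatase, at 0.72 (adjusted p = 0.0296).

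Ratios to the substrate within each library, where size factors cancel, were chosen after the values were seen and are given as a description. Since *Eif2s1* itself rose, a gene that stayed level has a lower ratio in mutant-labelled libraries. The ratio of *Eif2ak2* to *Eif2s1* was 0.0848, 0.101 and 0.0582 in control-labelled libraries and 0.334, 0.265 and 0.281 in mutant-labelled libraries. The ratio of *Ppp1r15a* to *Eif2s1* was 3.20, 3.58 and 4.09 in control-labelled libraries and 2.42, 1.54 and 1.96 in mutant-labelled libraries, and that of *Ppp1r15b* to *Eif2s1* was 4.23, 4.56 and 4.89 against 2.96, 2.76 and 2.70. The first was 3.61 times as high in mutant-labelled libraries, and the others were 0.544 and 0.615 times as high. The lower ratios of the phosphatase subunits come from the rise of *Eif2s1*, since the log2 fold changes of *Ppp1r15a* and *Ppp1r15b* were 0.12 and 0.32. The ratio of *Ppp1r15a* to *Ppp1r15b* overlapped between the groups. Since the length counted for each gene is not given in the table, these ratios compare libraries and not the abundance of the transcripts.

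**Figure D3:**
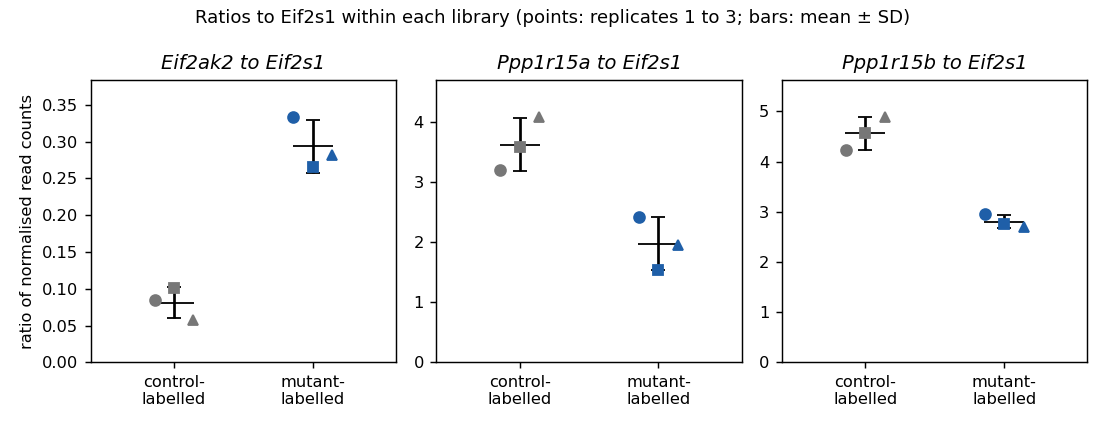
Ratio of the normalised read counts (y axis, from 0) of *Eif2ak2*, *Ppp1r15a* and *Ppp1r15b* to that of *Eif2s1* in each library, with points for replicates 1 to 3 and bars for the mean ± SD. The kinase ratio goes from 0.0813 to 0.294 and the phosphatase ratios from 3.62 to 1.97 and from 4.56 to 2.81.

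Of 9 listed regulators of the kinases, 0 passed the threshold with limma, with edgeR or with DESeq2, and 3 had an unadjusted p at or under 0.05 with limma, against 24.2% and 45.0% of all genes with limma. *Hspa5* (BiP), the chaperone that keeps PERK inactive, had counts of 21718 to 22927 in control-labelled libraries and 30436 to 38571 in mutant-labelled ones, which gave a log2 fold change of 0.63 (adjusted p = 0.00202). *Prkra* (PACT), an activator of PKR, was at -0.39 (adjusted p = 0.0474). Named after their values were seen, the GCN2 partners *Gcn1* and *Impact* were at -0.38 and -0.10, and *Dele1* and *Oma1*, which relay mitochondrial stress to HRI, at -0.04 and 0.27.

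Downstream of eIF2α, 15 of 19 transcripts of the ATF4 and CHOP axis passed the threshold as higher (13.9% of all genes) and none as lower, with a median log2 fold change of 2.43 against 0.03 over all genes. The count was 14 with a common 75th percentile, where *Ero1a* was lost, and 16 with a common total. *Ddit3* (CHOP) had counts of 113, 136 and 133 in control-labelled libraries and 1508, 1426 and 1906 in mutant-labelled ones, which gave a log2 fold change of 3.64 (adjusted p = 5.47e-06). *Trib3*, a pseudokinase induced by ATF4 and CHOP, went from 36.9 to 120.4 in control-labelled libraries to 8396 to 12559 in mutant-labelled ones (7.15, adjusted p = 8.31e-06). *Chac1*, which degrades glutathione, and *Asns*, the asparagine synthetase, rose by 7.31 and 5.02 on the log2 scale. In *Ddit3*, *Trib3*, *Chac1* and *Asns*, every mutant-labelled library was more than 10 times the highest control. Another gene overlaps *Chac1* on its strand, as for *Gdf15*, *Slc7a11* and *Sesn2*.

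*Gdf15*, *Slc7a11*, *Atf3*, *Sesn2*, *Cebpg*, *Atf5*, *Nupr1*, *Cars1*, *Herpud1* and *Ero1a* also passed, with log2 fold changes from 1.08 to 6.61. *Fgf21*, listed at 0 in all controls, was at least 22.1-fold higher, measured against 3 reads per control library. *Atf4* itself had counts of 18082 to 19036 in control-labelled libraries and 31479 to 35030.0 in mutant-labelled libraries, which gave a log2 fold change of 0.85 (adjusted p = 0.000137) that is under 2-fold, as for *Vldlr* at 0.72 (adjusted p = 0.00200) and *Ddit4* at 0.65 (adjusted p = 0.0453). *Psat1*, named after its value was seen, was at -0.02 (adjusted p = 0.913). *Ppp1r15a*, at 0.12, is known as a target of the same axis, and its values overlapped between the groups in which *Ddit3* and *Trib3* did not.

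**Figure D4:**
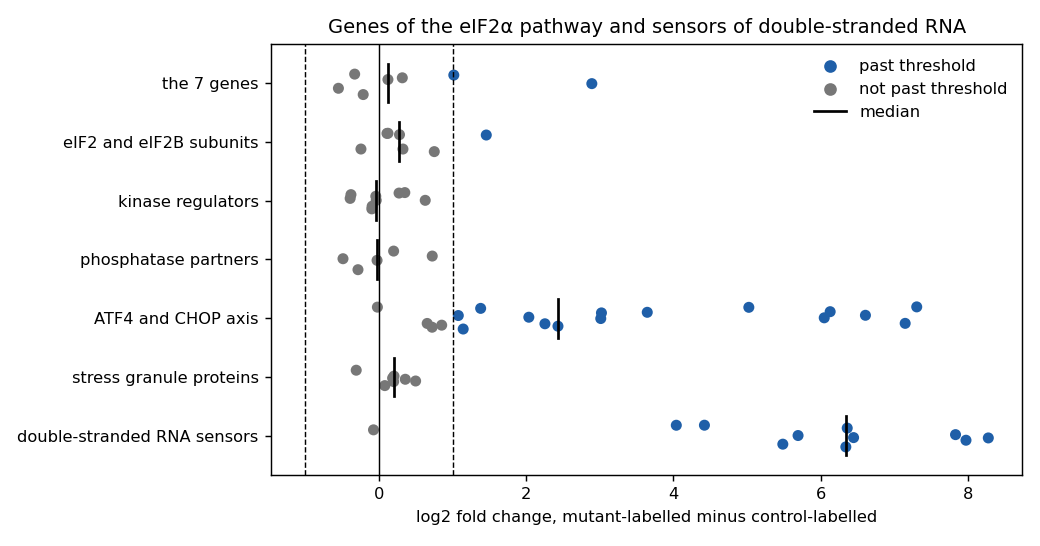
Log2 fold change (x axis, mutant-labelled minus control-labelled) of each tested gene in the 7 described here and in 6 lists around them, with black bars for medians, dashed lines for a 2-fold change and blue points past the threshold. *Eif2s3y*, which is absent from 3 libraries, is left out, and only the ATF4 and CHOP axis and the dsRNA sensors have more than 2 genes past the threshold.

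Of 7 stress granule proteins, which gather stalled mRNAs when eIF2α is phosphorylated, 0 passed the threshold with limma, with edgeR or with DESeq2, and 4 had an unadjusted p at or under 0.05 with limma, where the shares of all genes were 24.2% and 45.0%. The log2 fold changes of *G3bp2*, *Pabpc1* and *Tia1* were 0.50 (adjusted p = 0.0159), 0.36 (adjusted p = 0.0185) and -0.31 (adjusted p = 0.0597).

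PKR shares its ligand with the other sensors of dsRNA, and 10 of 11 of those listed passed the threshold as higher (13.9% of all genes), with a median log2 fold change of 6.34. The 10 ranged from 4.04 for *Tlr3*, the endosomal sensor, to 8.28 for *Oas3*, and all lay above the upper bound of the interval of *Eif2ak2*, 3.44. *Oas3* was at 0 in control replicate 3, so its value (SE 1.45) depends on the 1 added before the log. By ratio of means, *Oasl1* (168) and *Zbp1* (114) lay above *Oas3* (93.5). *Ifih1* (MDA5) was at 5.69 and *Ddx58* (RIG-I) at 4.42. The control levels of these sensors were uneven: the 11 summed to 2235 to 6764 in control-labelled libraries and 136899 to 178396 in mutant-labelled ones.

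The genes whose profile over the 6 libraries was closest to that of *Eif2ak2*, by the root mean square (RMS) difference of log2 values centred on the mean of each gene, were *Rbm43* (0.106), *Adar* (0.133), *Gem* (0.142), *Cebpb* (0.155) and *Upp1* (0.155). All 5 were lowest in control replicate 3, as *Eif2ak2* was, a likeness that follows from their choice by profile. Those closest to *Eif2s1* were *4933427D14Rik*, *Fem1b*, *Sfmbt1*, *Mrpl32* and *Cox17*, with RMS differences of 0.0397 to 0.0537. Their log2 fold changes of 0.94 to 1.09 follow from the same choice.

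The scaling of the libraries set the zero of these changes. Rescaling to the same total moved the median log2 fold change of all genes from 0.03 to 0.20, and a common 75th percentile took it to -0.09. Such a rescaling shifts all genes alike, so a value relative to that median is fixed by construction. With the authors' size factors it was 2.86 for *Eif2ak2*, 0.98 for *Eif2s1*, 0.28 for *Ppp1r15b*, -0.58 for *Eif2ak3* and -0.36 for *Eif2ak1*. *Eif2ak2* went from 2.78 under a common 75th percentile to 3.05 under a common total. The genes closest to 0 shifted alike: *Ppp1r15a* was at 0.0042 and 0.28, and *Eif2ak4* at -0.33 and -0.052. The adjusted p of *Ppp1r15a* and *Eif2ak4* stayed above 0.05 in every fit, while *Eif2s1* fell under 2-fold (0.90) with the common 75th percentile.

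**Figure D5:**
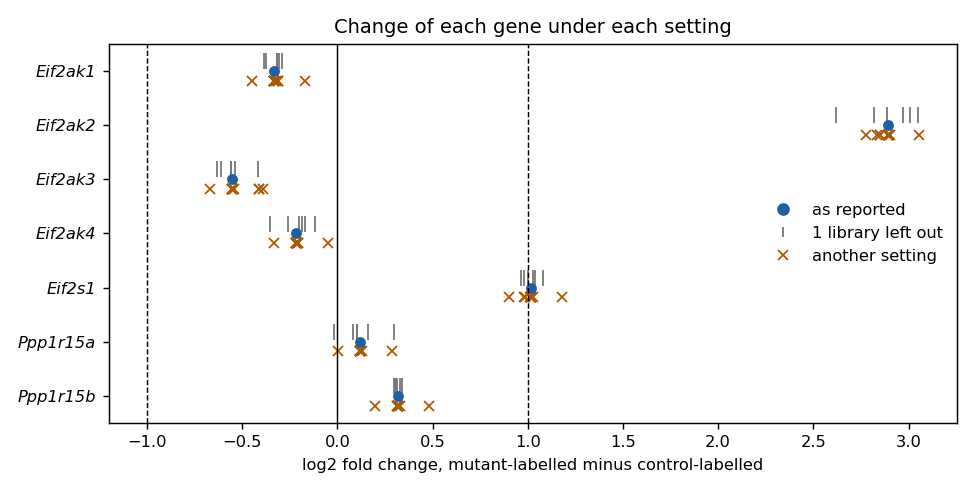
Log2 fold change (x axis) of the 7 genes as reported (blue), with each of the 6 libraries left out (grey ticks) and under 11 other settings (orange crosses), where dashed lines mark a 2-fold change. *Eif2ak2* stays between 2.62 and 3.05, and the values of *Eif2s1*, from 0.90 to 1.18, lie on both sides of 2-fold.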

How the data were processed

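Poly-A RNA of sciatic nerves was sequenced as oriented paired-end libraries. Per the labels and the study's methods, the authors mapped reads to mm10 with STAR 2.4.0, counted those on constitutive regions of FAST DB genes, and scaled each library by its DESeq2 size factor. The deposited values are this normalised signal, 1 per gene and library. In every library, 100% of values were whole multiples (within 0.01) of the value of a single read, 0.727 to 1.27. In mutant replicate 3 that value, 0.989, is too near 1 to be told from rounding by the check applied, so edgeR 4.0.16 and DESeq2 1.42.0 used reads of the 5 other libraries.

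limma 3.58.1 (R 4.3.3, eBayes with trend) was fitted to log2(value + 1) for genes with a mean of at least 10 in at least 1 group, and tested on simulated data. Adjusted p-values are Benjamini-Hochberg values. The genes and lists were chosen with earlier results of these data known. Named genes are the 7, the listed genes past the threshold, up to 3 others of each list with the smallest p, and the 5 closest profiles of each of the 7 past the threshold, and a few listed genes are not reported here. The animals are separate, so p-values measure the spread between 3 animals a group. Among the genes reported, the floor of 3 reads was used only for the fold change of *Fgf21* and entered no test. Counting error was not measured apart, since PCR reads carry no molecular identifiers. None of the 7 genes overlaps another on its strand, 6 overlap one on the other strand, and the counting is not stated to use strand. Other alternatives were pseudocounts of 0.1 and 10, no filter and a minimum mean of 50, 3 other scalings, eBayes without trend, adjusted p, a replicate block, and each library left out.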

Additional observations from a re-analysis of the deposited data

How the results depend on the processing

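*Eif2ak2* stayed past the threshold in every fit, with an adjusted p of at most 0.00286. The 2 genes past the threshold became 1 with rescaling to the same 75th percentile, edgeR or DESeq2 (5 libraries each), and 1 to 2 with a library left out. The gene lost was *Eif2s1*, at 0.90 with the 75th percentile, 0.98 with edgeR and 0.98 with DESeq2, and 0.96 to 1.08 with a library left out. The edgeR and DESeq2 fits lack mutant replicate 3, and limma without that library also gave 0.98 and lost the call. The log2 fold change of *Ppp1r15a* ran from -0.017 (without mutant replicate 1) to 0.30 with a library left out. The count of the 7 with an adjusted p at or under 0.05, which was 5, became 2 with eBayes without trend, 3 with edgeR and 3 to 5 with a library left out (3 without control replicate 2). *Eif2ak1* was above 0.05 in 8 of 17 other fits (0.0689 with the replicate block), *Ppp1r15b* in 5 and *Eif2ak3* in 1. The count over eIF2 and eIF2B subunits was 1 to 2 with a library left out, where the Y-linked *Eif2s3y* was gained. The gain came without control replicate 2, the only control-labelled library with *Eif2s3y* counts. It also came without mutant replicate 2, the only mutant-labelled one at 0. The cause of these shifts was not tested. Rescaling to the same total placed 66.4% of all genes past the threshold as higher, against 57.3%, and the same 75th percentile 50.3%. With the replicate number as a block, 3 of the 7 had an adjusted p at or under 0.05 and both calls past the threshold were made. Deviations of same-numbered libraries correlated at -0.06, -0.06 and 0.01, and those of differently numbered ones at -0.02 to 0.07. Same-numbered libraries carry consecutive sample numbers in their titles. With 3 animals a group, these correlations cannot exclude that the numbers pair animals by litter or preparation. The planned edgeR and DESeq2 fits of all 6 libraries were not run, and the fits of 5 were chosen after seeing the data.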
